A study of Mus musculus with 14 samples.

Results

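The genes described here encode the constitutive proteasome of mouse liver, and they were taken by name: every gene whose platform symbol began with Psma, Psmb, Psmc or Psmd followed by a digit, without the inducible catalytic subunits Psmb8, Psmb9 and Psmb10. The rule itself used no measured change, but these genes were chosen for description with earlier results of these data known. It found 36 genes among the 12394 genes that had at least 1 probe set with a single symbol, and these 36 were covered by 65 probe sets. Each gene was read from the probe set with the highest mean over all arrays, which was a choice among several for 17 genes and the only probe set for 19. Of the 36 genes, 34 passed the filter on dim probe sets described below. They were the 14 genes of the core particle, 17 genes of the regulatory particle (9 of its base and 8 of its lid) and 3 genes for chaperones that assemble the base (Psmd5, Psmd9 and Psmd10), which are not subunits of the finished particle. The other 2 genes were too dim to test. Psma8, an alpha subunit known from the germ cells of the testis, lay between 9.35 and 26.3 with a median of 20.3 in normalized intensity, and Psmc3ip, a meiotic recombination factor that shares only the start of its name, lay between 4.77 and 31.6 with a median of 14.7.

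Total RNA of liver from C57BL/6J mice with diet-induced obesity had been hybridised to 14 Affymetrix arrays of 1 colour, 1 array per sample. In 5 samples the liver had been treated with an adenovirus whose short hairpin RNA (shRNA) is directed at Jnk1, a stress-activated protein kinase encoded by Mapk8. In 4 samples, numbered 1, 2, 3 and 5, the hairpin of the adenovirus was directed at green fluorescent protein (GFP), which mice do not have, and in 5 samples vehicle had been given. All 3 groups shared the strain and the obesity. The labels give no virus dose, time, sex or age and do not say that each sample was a separate mouse, so a p-value here speaks only of the scatter among samples, which may be technical.

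The proteasome degrades proteins that carry chains of ubiquitin. Its core particle is a barrel of stacked rings: outer rings of alpha subunits form a gate, and inner rings of beta subunits hold the proteolytic sites, which face the inside. The regulatory particle caps the barrel. Its base contains a ring of ATPases that unfold the substrate and large scaffold subunits that receive ubiquitin, and its lid removes the ubiquitin chain. In liver the proteasome takes part in the turnover of enzymes and of apolipoprotein B, and cells in which it is inhibited raise the transcription of its subunit genes together through the factor encoded by Nfe2l1.

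Levels below are quantile normalized intensities in arbitrary units, and differences are log2 fold changes with their standard errors (SE) from 1 limma model of all 14 arrays. A gene is said to have risen or fallen when its p, adjusted over all 13575 probe sets tested by the Benjamini-Hochberg method, was under 0.05. Mapk8, the target, had 65.5, 58.8, 82.2, 68.2 and 63.2 on the Jnk1 shRNA arrays, against 162, 166, 182 and 159 on the GFP shRNA arrays and 186, 184, 149, 185 and 185 with vehicle. Its fold change against GFP shRNA was -1.31 ± 0.11 (limma, adjusted p = 3.50e-07), and no Jnk1 shRNA array overlapped either other group. The arrays also differed in measures that are not gene expression. The mean log2 level of the hybridization spike-in controls was 8.39 ± 0.32 with Jnk1 shRNA (SD, n = 5) against 8.89 ± 0.07 with GFP shRNA (n = 4; exact permutation test, two-sided p = 0.0159) and 8.90 ± 0.09 with vehicle (n = 5; exact permutation p = 0.0159). Among the Jnk1 shRNA arrays, array 2 had the highest spike-in level, at 8.79, and array 1 the lowest, at 7.92. The 3′ to 5′ ratio of Gapdh was taken on the deposited intensities. It was 0.735 ± 0.021 with Jnk1 shRNA (SD, n = 5), against 0.686 ± 0.020 with GFP shRNA (n = 4, exact permutation p = 0.0159) and 0.702 ± 0.031 with vehicle (n = 5, exact permutation p = 0.0873). After quantile normalization its log2 value was -0.57 to -0.48 with Jnk1 shRNA, -0.57 to -0.49 with GFP shRNA and -0.59 to -0.40 with vehicle. The deposited ratio of actin was 1.100 ± 0.044 with Jnk1 shRNA, against 1.086 ± 0.025 with GFP shRNA (exact permutation p = 0.571) and 1.124 ± 0.050 with vehicle (exact permutation p = 0.46).

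The cell type markers of the livers moved as well. Hepatocyte markers, 7 genes with none below the filter, summed to 29794 to 31330 with Jnk1 shRNA, 31549 to 33045 with GFP shRNA and 31037 to 34260 with vehicle. Of these 7, 2 fell against GFP shRNA and 4 against vehicle. Of all tested probe sets 15.8% fell against GFP shRNA and 18.7% against vehicle. Markers of macrophages and Kupffer cells summed to 3268 to 4048 with Jnk1 shRNA, 5505 to 6331 with GFP shRNA and 3237 to 5783 with vehicle, and 7 of 11 tested fell against GFP shRNA and 4 of 11 against vehicle. Endothelial markers summed to 695 to 812 with Jnk1 shRNA, 897 to 1109 with GFP shRNA and 1046 to 1089 with vehicle, and stellate cell markers to 1471 to 1627 with Jnk1 shRNA, 2099 to 2415 with GFP shRNA and 1949 to 2167 with vehicle. Of 6 endothelial markers tested, 3 fell against GFP shRNA and 4 against vehicle. Of 6 stellate cell markers tested, 4 fell against GFP shRNA and 2 against vehicle. Markers of T and NK cells, 6 of 11 below the filter, summed to 359.7 to 385 with Jnk1 shRNA, 237 to 374 with GFP shRNA and 180.3 to 229 with vehicle, and all 4 cholangiocyte markers lay below the filter. Of the 5 T and NK markers tested, 0 rose against GFP shRNA and 4 against vehicle, where 18.9% of all probe sets rose. The erythroid markers, 2 genes with 1 below the filter, summed to 110.1 to 190.2 with Jnk1 shRNA, 482 to 641 with GFP shRNA and 525 to 632 with vehicle, and the tested gene, Alas2, fell, with log2 fold changes of -2.02 against GFP shRNA and -2.04 against vehicle. Neutrophil markers (2 of 4 below the filter) summed to 124 to 216 with Jnk1 shRNA, 113 to 233 with GFP shRNA and 122 to 247 with vehicle, and B cell markers (2 of 3 below it) to 46.5 to 79.3 with Jnk1 shRNA, 74.4 to 91.7 with GFP shRNA and 59.8 to 74.2 with vehicle. In these whole-liver samples fewer cells of a type and less RNA per cell cannot be told apart. The part of these shifts and of the Gapdh ratio in the proteasome results was not tested, and the spike-in level entered only the covariate fit given after the lid.

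With Jnk1 shRNA, on the brightest probe sets, the core particle genes were higher almost throughout, the base genes mostly, and the lid genes mostly not. Base and lid were set apart after the values had been seen. How core, base and lid compared also changed when probe sets were averaged or the spike-in level was a covariate, as given below. Against GFP shRNA, 24 of the 34 tested genes rose and 1, Psmd14, fell. Of all tested probe sets 33.1% passed, 17.3% higher and 15.8% lower. Of the core particle, 13 of 14 genes rose with a median log2 fold change of 0.36; of the base, 7 of 9 with a median of 0.27; and of the lid, 2 of 8 with a median of 0.06. The regulatory particle as a whole counted 9 of 17 genes higher, with a median of 0.22, and the median over all tested probe sets was -0.01. On 23 genes every Jnk1 shRNA array lay above every GFP shRNA array, which held for 14.9% of all probe sets tested.

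Against vehicle, 25 of 34 genes rose and none of the 34 fell in limma (1 of them was lower at an unadjusted p under 0.05), where 18.9% of all probe sets rose and 18.7% fell. The counts were 13 of 14 in the core particle, with a median of 0.39, 8 of 9 in the base, with a median of 0.37, and 2 of 8 in the lid, with a median of 0.11. Both comparisons use the same 5 Jnk1 shRNA arrays, so they are not independent of each other. Counted over both, 24 genes rose against GFP shRNA and against vehicle. The share of all probe sets that rose in both is not given here, but cannot exceed the 17.3% that rose against GFP shRNA. Psmc6 rose against vehicle but did not pass against GFP shRNA, and 9 genes rose in neither (Psma3, Psmc2, Psmd3, Psmd6, Psmd7, Psmd9, Psmd11, Psmd12 and Psmd14).

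**Figure D1:**
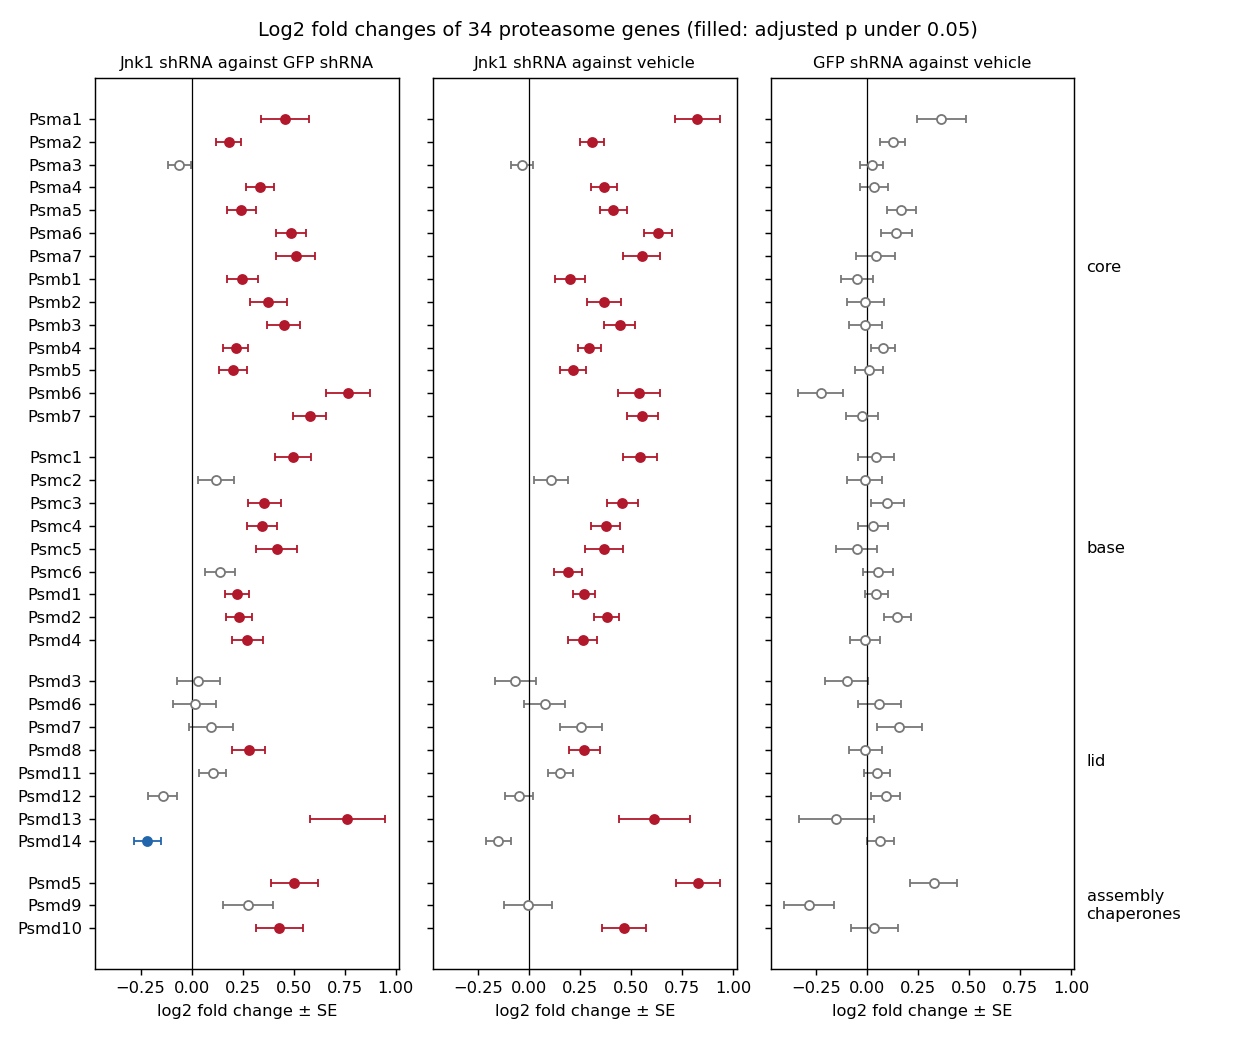
Log2 fold change (points) with its standard error (bars) for each of the 34 tested genes, by subcomplex, in the 3 comparisons; filled points passed an adjusted p of 0.05. The core particle and base lie right of 0 in both Jnk1 shRNA comparisons, apart from Psma3, the lid scatters around 0, and no point is filled for GFP shRNA against vehicle.

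With the GFP virus against vehicle no gene of the 34 passed. In limma 0 rose and 0 fell, with 5 at an unadjusted p under 0.05 (4 higher, 1 lower), where 2.58% of all probe sets passed, 2.05% higher and 0.53% lower. The smallest adjusted p was 0.135, for Psma1 (0.36 ± 0.12). Median log2 fold changes were 0.03 in the core particle, 0.04 in the base and 0.05 in the lid. On 3 genes, Psma2, Psma5 and Psmd2, every GFP shRNA array lay above every vehicle array, while 3.53% of all probe sets were so separated upward and 2.77% downward (6.3% in all).

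The catalytic subunits are described first, because they carry out the cleavage of the substrate. Psmb5 cleaves after hydrophobic residues, Psmb6 after acidic ones and Psmb7 after basic ones. Psmb6 had 684, 656, 686, 674 and 702 on Jnk1 shRNA arrays 1 to 5, against 362, 531, 351 and 379.7 on GFP shRNA arrays 1, 2, 3 and 5 and 528, 465, 435, 510.5 and 414 on vehicle arrays 1 to 5. Every Jnk1 shRNA array was above every other array, and GFP shRNA array 2 stood apart from the other GFP shRNA arrays, just above the highest vehicle array. Its log2 fold change was 0.77 ± 0.11 against GFP shRNA (1.70-fold, adjusted p = 6.03e-05) and 0.54 ± 0.10 against vehicle (adjusted p = 6.11e-04). With GFP shRNA against vehicle it was -0.23 ± 0.11 (adjusted p = 0.336), and without GFP shRNA array 2 it was -0.36 and passed.

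Psmb7 had 2571, 2150.5, 2802, 2163 and 2260.4 with Jnk1 shRNA, against 1584, 1668, 1449 and 1675 with GFP shRNA and 1712, 1731, 1559, 1615 and 1495 with vehicle. No Jnk1 shRNA array overlapped the other groups, and Jnk1 shRNA arrays 1 and 3 were the highest. Its log2 fold change was 0.58 ± 0.08 against GFP shRNA (adjusted p = 4.66e-05) and 0.55 ± 0.08 against vehicle (adjusted p = 2.73e-05). Psmb5 differed least of the 3. It had 870.1, 908, 968, 903 and 911 with Jnk1 shRNA, against 736, 866, 790.0 and 779 with GFP shRNA and 863, 830.4, 776, 744 and 728 with vehicle, so that the lowest Jnk1 shRNA array lay just above the highest array of both other groups. The log2 fold change was 0.20 ± 0.07 against GFP shRNA (adjusted p = 0.0298) and 0.21 ± 0.06 against vehicle (adjusted p = 0.0151). The call against GFP shRNA was lost when GFP shRNA array 1, 3 or 5 or Jnk1 shRNA array 3 or 5 was left out (adjusted p up to 0.0939).

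**Figure D2:**
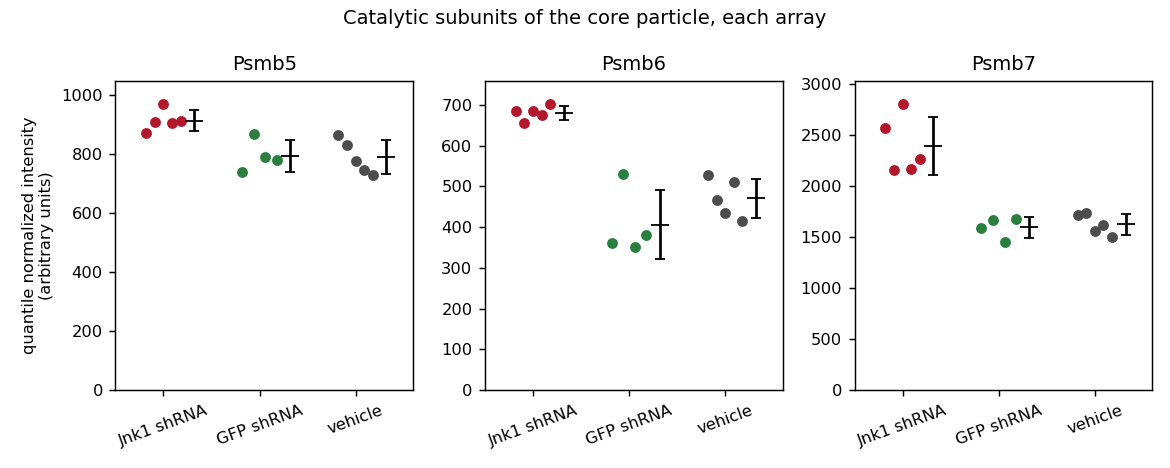
Quantile normalized intensity (arbitrary units) of Psmb5, Psmb6 and Psmb7 on each array by group; points are arrays in order of replicate number, and the bar gives the mean ± SD (n = 5, 4 and 5). All 5 Jnk1 shRNA arrays lie above the GFP shRNA and vehicle arrays in each panel, by a narrow margin for Psmb5.

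Promoters of the genes were searched for the letters TGACNNNGC, the core of the antioxidant response element to which Nfe2l1 and Nfe2l2 bind, and for CCAAT, the box bound by the factor that contains Nfya, Nfyb and Nfyc. The search covered the 250 bases before each annotated start in RefSeq sequences of GRCm38.p6, on both strands; 28 of the 34 genes had a promoter in the table. TGACNNNGC was found in 5 of the 28 (17.9%) and in 11.5% of the 27025 genes with a promoter in the table. It was in 2 of the 20 genes that rose against GFP shRNA (Psmb5 and Psmb6) and in 3 of the other 8 (Psmc6, Psmd9 and Psmd12). CCAAT was found in 11 of 28 (39.3%) and in 37.5% of all such genes, in 8 of the 20 and in 3 of the 8. A match describes letters only, and no binding was measured. The 5 matched stretches are shown because they include a catalytic subunit with a large difference and one with a small difference, besides genes that did not pass against GFP shRNA; capitals mark the match, each is read along its gene, and in Psmc6 and Psmd12 the match is on the opposite strand.
Psmb6: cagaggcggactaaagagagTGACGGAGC
Psmb5: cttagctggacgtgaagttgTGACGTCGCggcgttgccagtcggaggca
Psmc6: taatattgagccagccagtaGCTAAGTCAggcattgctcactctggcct
Psmd12: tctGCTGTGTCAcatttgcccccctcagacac
Psmd9: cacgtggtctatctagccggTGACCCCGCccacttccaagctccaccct
They lie at chr11:70525328-70525356 (plus strand) for Psmb6, chr14:54618014-54618062 (minus strand) for Psmb5, chr14:45329577-45329625 (plus) for Psmc6, chr11:107479278-107479309 (plus) for Psmd12 and chr5:123228139-123228187 (plus) for Psmd9. The match ended 1 base before the start of Psmb6, 39 bases before that of Psmb5, 23 before that of Psmd9, 219 before that of Psmc6 and 239 before that of Psmd12.

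The alpha ring, which gates the barrel, rose in 6 of 7 genes against GFP shRNA, with a median of 0.33, and in 6 of 7 against vehicle, with a median of 0.41. Psma6 had 1287, 1394, 1247, 1154 and 1303 with Jnk1 shRNA, against 804, 978, 1010.0 and 863 with GFP shRNA and 790.4, 815, 861, 858 and 796 with vehicle. No array of Jnk1 shRNA overlapped the other groups, which overlapped each other. The log2 fold change was 0.49 ± 0.07 against GFP shRNA (adjusted p = 1.19e-04) and 0.63 ± 0.07 against vehicle (adjusted p = 3.53e-06). Psma7 had 671, 765, 725, 702 and 739 with Jnk1 shRNA, against 432, 640.2, 468 and 506 with GFP shRNA and 456, 479.9, 514, 541 and 472 with vehicle. As for Psmb6, GFP shRNA array 2 was the highest of its group but still below every Jnk1 shRNA array. Psma7 differed by 0.51 ± 0.10 against GFP shRNA (adjusted p = 7.99e-04) and by 0.55 ± 0.09 against vehicle (adjusted p = 1.82e-04).

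The lowest and highest arrays of Psma1 were 1081 and 1354 with Jnk1 shRNA, 725 and 955 with GFP shRNA and 523 and 814 with vehicle. It rose by 0.46 ± 0.12 against GFP shRNA (adjusted p = 0.00699) and by 0.82 ± 0.11 against vehicle (adjusted p = 2.48e-05), and GFP shRNA and vehicle overlapped. The other alpha subunits that rose were Psma4 (0.33 ± 0.07 against GFP shRNA and 0.37 ± 0.06 against vehicle), Psma5 (0.24 ± 0.07, with 1 Jnk1 shRNA array among the GFP shRNA arrays, and 0.41 ± 0.07) and Psma2 (0.18 ± 0.06 and 0.31 ± 0.06). The Psma2 call against GFP shRNA, at an adjusted p of 0.0329, was lost when GFP shRNA array 1, 3 or 5 or Jnk1 shRNA array 3 was left out. Psma3 was the exception in the core particle. It had 1236, 1452, 1310.3, 1335 and 1318 with Jnk1 shRNA, against 1482, 1346, 1336 and 1382 with GFP shRNA and 1307, 1320.2, 1413, 1409 and 1377 with vehicle, with all groups overlapping, and differed by -0.06 ± 0.06 against GFP shRNA (adjusted p = 0.446) and -0.04 ± 0.05 against vehicle (adjusted p = 0.616).

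The beta subunits without a proteolytic site, Psmb1 to Psmb4, rose in 4 of 4 genes in both Jnk1 shRNA comparisons, with medians of 0.31 against GFP shRNA and 0.33 against vehicle. Psmb3 had 707, 719.6, 708, 781 and 742 with Jnk1 shRNA, against 465, 569, 567 and 543 with GFP shRNA and 477, 611, 552, 523 and 535 with vehicle. The Jnk1 shRNA arrays were all above the rest, and the difference was 0.45 ± 0.08 against GFP shRNA (adjusted p = 4.42e-04) and 0.44 ± 0.08 against vehicle (adjusted p = 2.33e-04). Psmb2 had 676, 743, 760.2, 655 and 638 with Jnk1 shRNA, against 493, 519, 555 and 571 with GFP shRNA and 474, 626, 578, 539 and 485 with vehicle. Again no array overlapped, although vehicle array 2 came close, and the difference was 0.38 ± 0.09 against GFP shRNA (adjusted p = 0.00427) and 0.37 ± 0.08 against vehicle (adjusted p = 0.00271). Psmb4 rose by 0.22 ± 0.06 and 0.29 ± 0.06, and Psmb1 by 0.25 ± 0.08 and 0.20 ± 0.07. The call of Psmb1 was the weakest of them: it was lost against GFP shRNA without GFP shRNA array 3 or Jnk1 shRNA array 3 (adjusted p up to 0.0740), and against vehicle in 10 of the 14 fits that left out 1 array (adjusted p up to 0.117).

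In the base, the ATPases Psmc1 to Psmc6 rose in 4 of 6 genes against GFP shRNA and in 5 of 6 against vehicle, with medians of 0.35 and 0.37. Psmc1 had 522, 684, 525, 629.7 and 578 with Jnk1 shRNA, against 399.7, 399, 442 and 417 with GFP shRNA and 359.8, 429.7, 429, 408 and 388 with vehicle. Its Jnk1 shRNA arrays spread widely but all lay above the others, and it rose by 0.50 ± 0.09 against GFP shRNA (adjusted p = 4.40e-04) and by 0.54 ± 0.08 against vehicle (adjusted p = 8.94e-05). Psmc4 had 498, 515, 536, 517 and 546 with Jnk1 shRNA, against 391, 411, 440.1 and 404 with GFP shRNA and 409.8, 443, 423, 358 and 387 with vehicle. It did not overlap either, with 0.35 ± 0.07 against GFP shRNA (adjusted p = 0.00187) and 0.37 ± 0.07 against vehicle (adjusted p = 4.64e-04). Psmc5 rose by 0.42 ± 0.10 and 0.37 ± 0.09 and Psmc3 by 0.36 ± 0.08 and 0.46 ± 0.08. Psmc2 differed by 0.12 ± 0.09 and 0.10 ± 0.08 (adjusted p = 0.326 and 0.352). Psmc6 had 749, 912, 708, 802 and 752 with Jnk1 shRNA, against 746, 725, 689.8 and 682 with GFP shRNA and 667, 716, 727, 676 and 643 with vehicle, and the groups overlapped. It differed by 0.14 ± 0.07 against GFP shRNA (adjusted p = 0.173) and by 0.19 ± 0.07 against vehicle (adjusted p = 0.0433), a call that was lost in 8 of the 14 fits without 1 array.

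The base genes taken by the rule that do not encode ATPases, Psmd1, Psmd2 and Psmd4, all rose. Psmd1, a large scaffold subunit, had 664, 637, 643, 637 and 633 with Jnk1 shRNA, against 536, 557, 553 and 556 with GFP shRNA and 544, 562, 546, 518 and 500.0 with vehicle. Its arrays were tight in every group, with a gap between Jnk1 shRNA and the rest, and it differed by 0.22 ± 0.06 against GFP shRNA (adjusted p = 0.00705) and by 0.27 ± 0.05 against vehicle (adjusted p = 9.69e-04). Psmd2, its partner scaffold, rose by 0.23 ± 0.06 and 0.38 ± 0.06, and Psmd4, a receptor for ubiquitin chains, by 0.27 ± 0.07 and 0.26 ± 0.07. With the spike-in covariate none of these 3 calls against GFP shRNA held in limma (adjusted p = 0.167 for Psmd1, 0.155 for Psmd2 and 0.0953 for Psmd4). The spike-in level itself differed between the groups, so a call lost in that fit does not show that a difference was absent.

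Of the 8 genes of the lid, Psmd8 and Psmd13 rose in both Jnk1 shRNA comparisons. Psmd13 had 286, 389, 351, 360.3 and 316 with Jnk1 shRNA, against 149, 166, 235 and 273 with GFP shRNA and 246, 266, 149, 229 and 239.7 with vehicle. The 2 control groups were scattered, and the lowest Jnk1 shRNA array was close above the highest GFP shRNA array. It differed by 0.76 ± 0.18 against GFP shRNA (adjusted p = 0.00458) and by 0.61 ± 0.17 against vehicle (adjusted p = 0.0105). Psmd8 differed by 0.28 ± 0.08 (adjusted p = 0.0137) and 0.27 ± 0.08 (adjusted p = 0.00988), and the first call was lost without GFP shRNA array 1 (adjusted p = 0.0545).

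Psmd14 is the deubiquitinase of the lid, which removes the chain as the substrate enters. It had 642, 708, 610.4, 589.6 and 626 with Jnk1 shRNA, against 706, 717, 764 and 763 with GFP shRNA and 704, 733, 734, 682 and 674 with vehicle. Jnk1 shRNA array 2 lay among the controls and the other 4 lay below all of them. The difference was -0.22 ± 0.07 against GFP shRNA (adjusted p = 0.0173) and -0.15 ± 0.06 against vehicle (adjusted p = 0.0613). The fall rested on the processing: without GFP shRNA array 5 its adjusted p was 0.0521, and after scaling of all arrays to a common median its difference was 0.00435 (adjusted p = 0.984). The 5 remaining lid genes did not pass in either comparison. Psmd3, Psmd6 and Psmd7 differed by 0.03 ± 0.10, 0.01 ± 0.10 and 0.09 ± 0.11 against GFP shRNA, Psmd11 by 0.10 ± 0.06 and Psmd12 by -0.14 ± 0.07. All 5 had their widest range with Jnk1 shRNA. Psmd6 spanned 569 to 851 with Jnk1 shRNA, 628 to 741 with GFP shRNA and 598 to 710.4 with vehicle, and Psmd3 spanned 220.3 to 333 with Jnk1 shRNA, 227 to 263 with GFP shRNA and 252 to 283 with vehicle.

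Averaged over the genes of a subcomplex and expressed as a log2 difference from the vehicle group mean, the core particle lay at 0.36 to 0.45 on the Jnk1 shRNA arrays (mean 0.40 ± 0.04, SD, n = 5), -0.04 to 0.15 on the GFP shRNA arrays (0.05 ± 0.08, n = 4) and -0.04 to 0.03 on the vehicle arrays. The base lay at 0.28 to 0.41 with Jnk1 shRNA (0.33 ± 0.05), at -0.0018 to 0.09 with GFP shRNA (0.04 ± 0.04) and at -0.08 to 0.12 with vehicle, again with no overlap between Jnk1 shRNA and the others. The lid lay at 0.05 to 0.28 with Jnk1 shRNA (0.14 ± 0.09), -0.07 to 0.08 with GFP shRNA (0.02 ± 0.07) and -0.05 to 0.08 with vehicle, and these ranges overlapped. No p is given for these averages, because base and lid were set apart after the values had been seen.

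**Figure D3:**
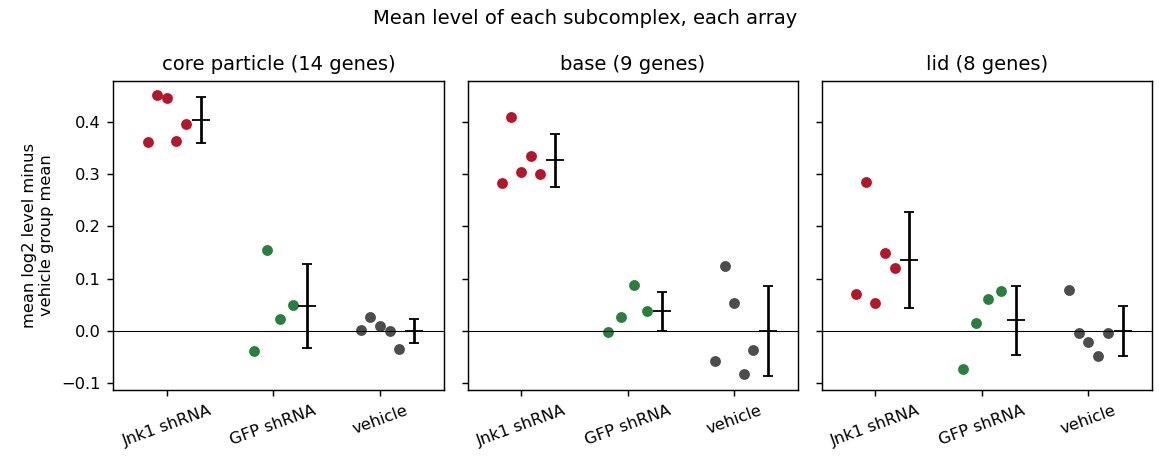
Mean log2 level of the 14 core, 9 base and 8 lid genes on each array, minus the mean of the vehicle group; points are arrays in order of replicate number and the bar gives the mean ± SD (n = 5, 4 and 5). Jnk1 shRNA arrays stand clear of the others for the core particle and the base, and overlap them for the lid, where array 2 is the highest at 0.28.

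The gap between core and lid was also taken within each array, where a shift common to both cancels but a shift of one alone does not. Core minus lid was 0.17 to 0.39 with Jnk1 shRNA, -0.04 to 0.14 with GFP shRNA and -0.08 to 0.05 with vehicle. The smallest gap among the Jnk1 shRNA arrays, 0.17, was that of array 2, which also had the highest spike-in level. The largest, 0.39, was that of array 3, while array 1, with the lowest spike-in level, had 0.29. Arrays 4 and 5 had gaps of 0.21 and 0.28, at spike-in levels of 8.38 and 8.52. Core minus base overlapped between groups, at 0.03 to 0.14 with Jnk1 shRNA, -0.06 to 0.13 with GFP shRNA and -0.10 to 0.08 with vehicle.

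A further fit held the spike-in level as a covariate. That level was 7.92 to 8.79 with Jnk1 shRNA and 8.82 to 8.98 with GFP shRNA. Group and covariate are therefore hard to separate, and a lost call does not show an absent difference. That fit left 15 of 34 genes higher against GFP shRNA, where 1216 of all 13575 probe sets rose and 1133 fell (17.3% in either direction). Psmd14 did not pass against GFP shRNA (limma, adjusted p = 0.268). The core particle counted 8 of 14 higher with a median of 0.41, the base 3 of 9 with 0.29 and the lid 2 of 8 with 0.27. Base and lid medians were thus close in that fit, against 0.27 and 0.06 without the covariate. No test compared the subcomplexes with each other, and a relation of the lid to the spike-in level was not tested.

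Several genes had further probe sets, which did not always match the brightest one. For 13 genes, 19 other probe sets passed the filter; against GFP shRNA 10 of these gave the same call, 15 had the same sign and 0 gave an opposite call. Psmc6 showed the widest disagreement: its brightest probe set gave 0.14 ± 0.07, and the others 0.80 ± 0.10 (adjusted p = 2.37e-05) and 0.89 ± 0.14 (adjusted p = 1.33e-04). For Psmc2 the values were 0.12 ± 0.09 and 0.41 ± 0.07 (adjusted p = 4.70e-04), so that both ATPases that did not pass had another probe set that did. Psmd11 gave 0.10 ± 0.06 on the brightest probe set and -0.23 ± 0.26 to 0.40 ± 0.09 on 4 others, of which 1 passed. In the core particle, Psmb1 had other probe sets at 0.31 ± 0.47 and -0.32 ± 0.19, and Psma6 one at -0.31 ± 0.31, none of which passed. The other probe sets of Psma7 (0.16 ± 0.13) and Psmb4 (0.14 ± 0.11) did not pass either. Those of Psma5 (0.51 ± 0.08) and Psmb3 (0.57 ± 0.11) and a further one of Psma6 (0.29 ± 0.05) did. The brightest probe sets of Psma6, Psmc2 and Psmd11 carry a suffix by which Affymetrix marks probes that may also match other transcripts. Among the other probe sets, that of Psmc6 at 0.80 ± 0.10 also carries such a suffix. So do those of Psma6 at -0.31 ± 0.31, Psmb1 at 0.31 ± 0.47, Psmb4 at 0.14 ± 0.11 and Psmd13 at 0.55 ± 0.12. With all kept probe sets of a gene averaged, 9 of 9 base genes, 10 of 14 core genes and 2 of 8 lid genes rose against GFP shRNA, and 1 lid gene fell.

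**Figure D4:**
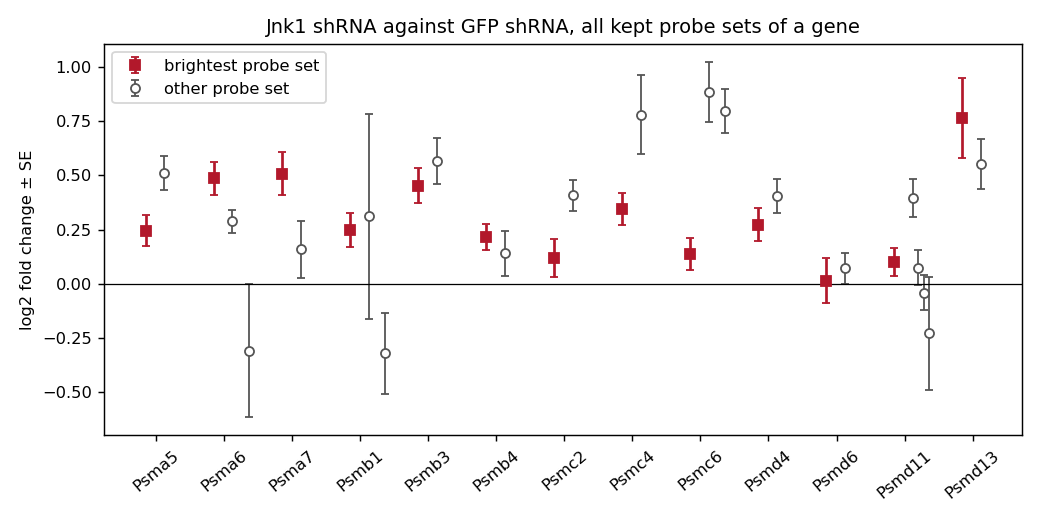
Log2 fold change with its standard error, Jnk1 shRNA against GFP shRNA, for each kept probe set of the 13 genes that had more than 1; squares are the probe set with the highest mean and circles the others. The circles of Psmc2 and Psmc6 lie well above their squares, and those of Psma6 and Psmb1 with wide bars fall on either side of 0.

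The chaperones that help assemble the base rose in 2 of 3 genes in both Jnk1 shRNA comparisons. Psmd5 had 305, 333, 300.2, 292 and 306 with Jnk1 shRNA, against 219.5, 208, 228 and 212 with GFP shRNA and 142, 182, 145, 221 and 186 with vehicle. The Jnk1 shRNA arrays were all above the rest, and it rose by 0.50 ± 0.11 against GFP shRNA (adjusted p = 0.00307) and by 0.83 ± 0.11 against vehicle (1.78-fold, adjusted p = 1.67e-05). Psmd10, which binds an ATPase of the base, had 102, 123, 139, 145 and 126 with Jnk1 shRNA, against 90.5, 99.0, 88.7 and 96.5 with GFP shRNA and 83.4, 83.9, 106, 94.1 and 91.7 with vehicle. It overlapped vehicle on 1 array and rose by 0.43 ± 0.11 against GFP shRNA (adjusted p = 0.00856) and by 0.46 ± 0.11 against vehicle (adjusted p = 0.00280). Psmd9 differed by 0.28 ± 0.12 against GFP shRNA (adjusted p = 0.0962, past the threshold without GFP shRNA array 1) and by -0.01 ± 0.12 against vehicle (adjusted p = 0.971).

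Genes that act with the proteasome were taken from a list of 53 symbols, of which 38 had a single-symbol probe set and 37 were tested. Against GFP shRNA 11 rose and 6 fell (median 0.08), against vehicle 18 rose and 4 fell (median 0.20), and with GFP shRNA against vehicle 5 rose (median 0.04). The shares of all probe sets that passed in either direction were 33.1%, 37.6% and 2.58% in these comparisons. The inducible subunits Psmb8, Psmb9 and Psmb10, which take the places of Psmb5, Psmb6 and Psmb7 in the immunoproteasome after interferon, were ordered differently across the groups. Psmb9 had 317, 249, 331, 245 and 308 with Jnk1 shRNA, against 551, 594, 489.7 and 543 with GFP shRNA and 204, 179, 108, 189 and 125 with vehicle. The 3 groups did not overlap, with GFP shRNA highest, where Psmb6 was highest with Jnk1 shRNA. Psmb9 fell by 0.92 ± 0.17 on the log2 scale against GFP shRNA (adjusted p = 5.11e-04) and rose by 0.88 ± 0.16 against vehicle (adjusted p = 3.31e-04), and GFP shRNA against vehicle gave 1.80 ± 0.17 (adjusted p = 8.35e-06).

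Psmb10 had 337, 287, 272, 321 and 303 with Jnk1 shRNA, against 418, 494, 413 and 486 with GFP shRNA and 161, 186, 176, 213 and 175 with vehicle. It was ordered like Psmb9, with -0.57 ± 0.10 for Jnk1 shRNA against GFP shRNA (adjusted p = 2.88e-04), 0.74 ± 0.09 for Jnk1 shRNA against vehicle (adjusted p = 9.65e-06) and 1.31 ± 0.10 for GFP shRNA against vehicle (adjusted p = 1.03e-06). Psmb8 rose with either virus against vehicle, by 1.06 ± 0.14 with Jnk1 shRNA and 1.11 ± 0.15 with GFP shRNA, and differed by -0.05 ± 0.15 between the viruses (adjusted p = 0.821). The summed markers of macrophages were above all Jnk1 shRNA arrays on every GFP shRNA array but overlapped vehicle. With GFP shRNA against vehicle 2 of 11 of these markers rose and 2 fell, where 2.05% of all probe sets rose and 0.53% fell. Their part in the values of Psmb9 and Psmb10 was not tested.

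The activators that can cap the core particle in place of the regulatory particle rose in 3 of 3 tested genes in both Jnk1 shRNA comparisons. Psme1 had 1300.3, 1066, 1300.3, 1211 and 1339 with Jnk1 shRNA, against 735, 967, 722 and 833 with GFP shRNA and 633, 641, 481, 581 and 546 with vehicle. The 3 groups did not overlap, and GFP shRNA against vehicle gave 0.50 ± 0.10 (adjusted p = 0.0145). Psme3, the nuclear activator, rose by 0.88 ± 0.19 against GFP shRNA and 0.54 ± 0.18 against vehicle, and Psme4 by 0.38 ± 0.08 and 0.39 ± 0.07. Psmf1, an inhibitor of the core particle in the test tube, rose by 0.64 ± 0.11 and 0.88 ± 0.10. Of 5 assembly factors of the core particle, 1 rose against GFP shRNA and 2 against vehicle: Psmg3 by 0.48 ± 0.12 and 0.57 ± 0.11, and Pomp, which guides beta subunits into the ring, by 0.38 ± 0.09 against vehicle. Pomp differed by 0.15 ± 0.10 against GFP shRNA (adjusted p = 0.237).

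Among receptors of ubiquitin and deubiquitinases that bind the proteasome, 3 of 6 rose against GFP shRNA, and all 3 were ubiquilins, which carry ubiquitinated proteins to the particle. Ubqln4 had 186, 156, 213, 155 and 167 with Jnk1 shRNA, against 79.6, 75.8, 84.1 and 71.6 with GFP shRNA and 105, 102, 124, 88.2 and 96.8 with vehicle. It was well separated, at 1.16 ± 0.12 against GFP shRNA (adjusted p = 2.92e-06) and 0.76 ± 0.11 against vehicle (adjusted p = 6.44e-05). Ubqln1 rose by 0.30 ± 0.06 and 0.33 ± 0.06 and Ubqln2 by 0.39 ± 0.09 and 0.51 ± 0.09. Of the deubiquitinases, Usp14 rose against vehicle (0.27 ± 0.09) and Uchl5 fell by 0.41 ± 0.10 on the log2 scale against vehicle, and neither passed against GFP shRNA (0.21 ± 0.09 and -0.24 ± 0.10). The unfolding ATPase Vcp and its cofactors Ufd1 and Nploc4, which extract ubiquitinated proteins from membranes and complexes, differed by 0.15 ± 0.06, 0.27 ± 0.10 and 0.22 ± 0.07 against GFP shRNA, with adjusted p of 0.0515, 0.0492 and 0.0320, and rose by 0.21 ± 0.05, 0.35 ± 0.10 and 0.23 ± 0.07 against vehicle.

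**Figure D5:**
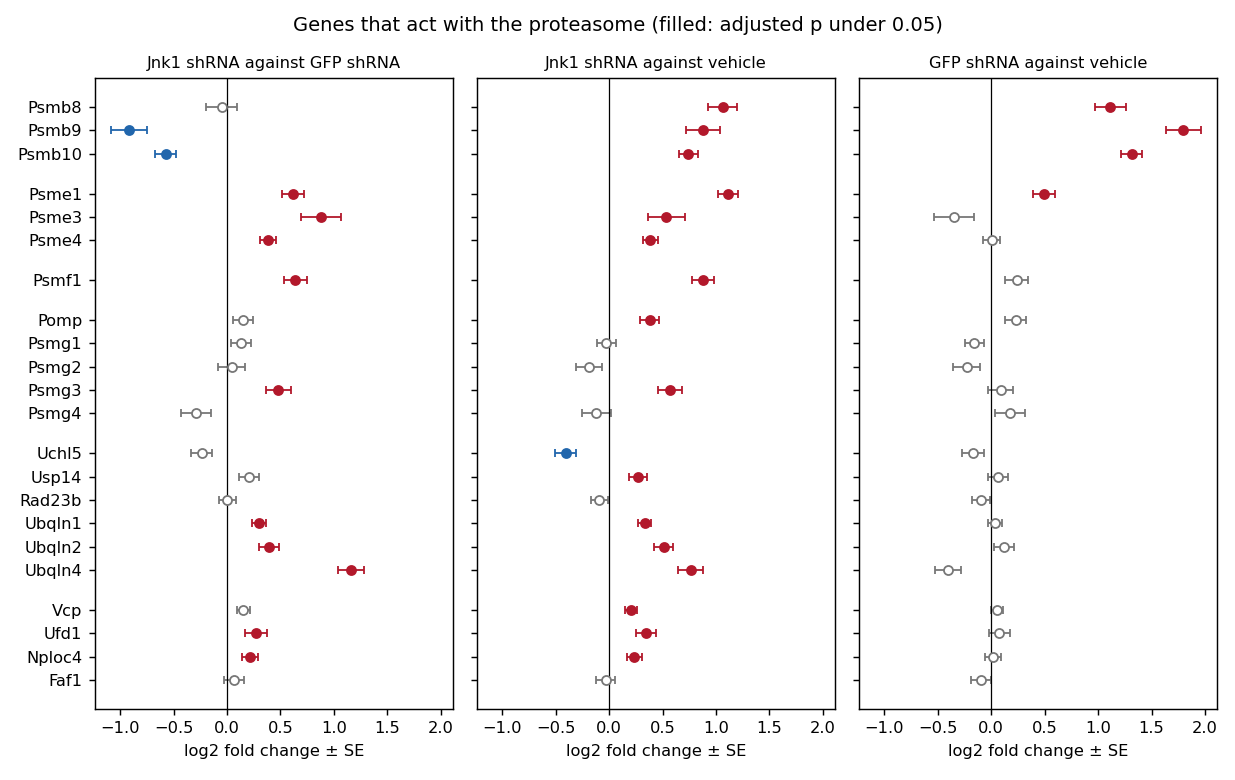
Log2 fold change with its standard error of 22 genes that act with the proteasome, by role, in the 3 comparisons; filled points passed an adjusted p of 0.05, in red for higher and blue for lower. Psmb8, Psmb9 and Psmb10 rose with GFP shRNA against vehicle, and Psme1, Psme3, Psme4, Ubqln1, Ubqln2 and Ubqln4 rose with Jnk1 shRNA against both other groups.

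Of 7 other proteins that associate with the particle, 1 rose and 1 fell in each Jnk1 shRNA comparison. Txnl1, a thioredoxin-like protein, rose by 0.20 ± 0.07 against GFP shRNA, and Ube3c, a ubiquitin ligase, fell by 0.48 ± 0.12 on the log2 scale against GFP shRNA and 0.52 ± 0.12 against vehicle. Zfand2a rose against vehicle with either virus, by 1.18 ± 0.25 with Jnk1 shRNA and 1.18 ± 0.26 with GFP shRNA. Of 8 transcription factors of proteasome genes and their processing enzymes, 3 fell against GFP shRNA, while against vehicle 2 fell and 1 rose. Nfe2l1, whose product drives proteasome genes, differed by 0.17 ± 0.11 against GFP shRNA (adjusted p = 0.254) and 0.13 ± 0.10 against vehicle (adjusted p = 0.343), and Nfe2l2 by -0.10 ± 0.18 and 0.16 ± 0.17. Ngly1, which removes sugars from the Nfe2l1 protein, fell by 0.39 ± 0.09 and 0.35 ± 0.09 on the log2 scale, Foxo3 fell by 1.24 ± 0.30 and 1.49 ± 0.29, and Nfya fell by 0.62 ± 0.17 against GFP shRNA. Nfyc rose by 0.28 ± 0.10 against vehicle. These are transcript levels, and the activity of these factors was not measured.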

How the data were processed

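Total RNA of pulverized liver carried a biotin label, per the labels' protocols. What the authors deposited were intensities on a linear scale for 22690 probe sets on each of 14 arrays; which software made them, with what background correction or detection calls, is not given in the sources used here. Trimmed means of the deposited arrays (2% off either end) were 150.05 to 150.06, and array medians were 41.8 to 58.3, so arrays were quantile normalized here, values under the 5th percentile (2.01) set to it, and log2 taken. The 64 control probe sets and the dimmest 40% of the rest were left out (filter at an intensity of 28.4), which left 13575. Group means were fitted with limma 3.58.1 in R 4.3.3 (eBayes with intensity trend), with Benjamini-Hochberg adjustment, and the fit was tested on simulated data. Exact permutation tests used scipy 1.17.1. Precision is limited by the number of arrays.

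Symbols are those of the platform annotation, in which 20393 probe sets had 1 symbol, 691 several and 1606 none. All 36 genes matched RefSeq by gene identifier. The split into base and lid was made after the values were seen. The genes and lists were chosen with earlier results of these data known. Per-array values were printed for Psmb5, Psmb6 and Psmb7, for the 2 genes with the smallest p against GFP shRNA in each role (alpha ring, other beta subunits, ATPases, other regulatory subunits, chaperones), and, chosen after their values were seen, for Psma3, Psmc6, Psmd14, Psmb9, Psmb10, Psme1 and Ubqln4, besides Mapk8 as the check of the target. Other members, and listed genes of the pathway that passed, were named with their differences. Alternatives were 2 other normalizations, 2 filters, a pseudocount of 16, 2 variance models, fits of 2 groups, the replicate number as a block, the spike-in level as a covariate, averaged probe sets and each array left out. Samples with the same replicate number showed little shared deviation (correlations of -0.24 to 0.12 in 13 pairs, 2 over 0.1). This cannot show whether the numbers pair the samples, because a small shared effect could look the same. The sample titles do not say what the numbers stand for.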

Additional observations from a re-analysis of the deposited data

Results flagged for a closer look

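The highest or lowest array of a group was compared with its nearest neighbour for every tested gene and for the measures of array quality. The mean levels of the core particle, base, lid and assembly chaperones were included. Of 126 groups of 4 or 5 arrays in all, 6 stood apart, where chance gives about 1 group in 20. The measure was the gap to the nearest array divided by the range of the group, set against Dixon's critical value for the size of the group. For Psma1 with Jnk1 shRNA the value was 0.833, from array 2 as the highest (log2 level 10.40, next 10.13). For Psmd3 with Jnk1 shRNA it was 0.720, from array 1 as the highest (8.38, next 7.95). In the vehicle group, Psmd11 gave 0.785 from array 5 as the highest and Psmd13 gave 0.744 from array 3 as the lowest. In the GFP shRNA group, the Gapdh 3′ to 5′ ratio gave 0.889 from array 5 as the lowest (0.656, next 0.693), and the median deposited intensity gave 0.837 from array 2 as the highest (58.3, next 47.8). GFP shRNA array 2 was also the highest of its group for Psmb6 and Psma7.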

How the results depend on the processing

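Among 2652 differences of single genes under alternatives, 104 lost the call and 24 gained one. The sign differed from the reported value in 83, of which 82 were called in neither setting and 1 had been called: Psmd14, Jnk1 shRNA against GFP shRNA, 0.00435 after scaling to a common median. Against GFP shRNA 13 genes, and against vehicle 16, rose in each planned setting. The share of all probe sets that did so is not given here. With Psmd14 no longer passing, the count of genes lower against GFP shRNA was 0 on the values as deposited and with median scaling. It was also 0 with the replicate number as a block and with the spike-in covariate. The replicate block gave 24 higher against GFP shRNA and 23 against vehicle. Median scaling moved the median of all probe sets to 0.09 for Jnk1 shRNA against GFP shRNA and -0.11 for GFP shRNA against vehicle, with 2986 higher and 1144 lower in the first against 2350 and 2147 under quantile normalization. Under it the core and regulatory medians were 0.54 and 0.42 for Jnk1 shRNA against GFP shRNA, and -0.17 and -0.11 for GFP shRNA against vehicle, with 1 gene lower (Psmb6); as deposited, the core median of the last was -0.033. With the spike-in covariate, 15 genes rose against GFP shRNA, with medians of 0.41 in the core and 0.28 in the regulatory particle, and 1 (Psmd3) fell against vehicle. A fit with array 2 alone for Jnk1 shRNA gave regulatory medians of 0.33 against GFP shRNA and 0.35 against vehicle. That array was picked after its values were seen and was assumed to vary like the others. The fit therefore describes that array and supports nothing else. The cause of these shifts was not tested. Leaving out 1 array gave 21 to 24 genes higher and 0 to 1 lower against GFP shRNA, 23 to 26 and 0 to 1 against vehicle, and 0 to 1 and 0 to 1 for GFP shRNA against vehicle; the lower call of Psmd14 was lost without GFP shRNA array 5 and gained against vehicle without Jnk1 shRNA array 2, and for GFP shRNA against vehicle Psma1 passed without vehicle array 1, Psmd5 without vehicle array 4 and Psmb6 without GFP shRNA array 2. Without detection calls, signal over background is unknown, and the smallest differences lie near the limit of 4 or 5 arrays.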
